A study of Mus musculus with 6 samples.

Results

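Medium spiny neurons are the projection neurons of the striatum, and 9 genes that mark them were followed through RNA-seq libraries of mouse brain tissue: Drd1, Drd2, Adora2a, Ppp1r1b, Penk, Pdyn, Tac1, Rgs9 and Pde10a. They are 9 of the 52390 genes in the count table, found by their gene names, and all 9 were among the 21844 genes that passed the filter on low counts. The group of genes was selected on these same libraries, because its mean level differed between replicates of one condition. The differences between replicate libraries given here are therefore a description and carry no test.

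The libraries came from male C57BL/6 mice that received a recombinant adeno-associated virus in the medial prefrontal cortex (mPFC) at 8 weeks of age. In the AP1AR-DT OE group (n = 3) the virus carried the human lncRNA AP1AR-DT, named AC109347.1 in part of the labels, driven by the neuronal promoter of human synapsin I. In the control group (n = 3) it was an empty vector. The overexpression vector also carried EGFP under a CMV promoter, and a figure legend of the study names an EGFP vector for both groups. Nothing in the sources used here says that animals were pooled. The control libraries are numbered 1 to 3, and those of AP1AR-DT OE mice are called A, B and C because their columns carry no mouse number. The comparison asks which transcripts differed between the groups, and its P-values set that difference against the spread between mice within the groups.

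Striatal medium spiny neurons use GABA and fall into a direct pathway population, which expresses the dopamine D1 receptor and the peptides dynorphin and substance P, and an indirect pathway population, which expresses the dopamine D2 receptor, an adenosine receptor and enkephalin. Dopamine raises cAMP through D1 and lowers it through D2, and adenosine raises it through the receptor that Adora2a encodes. In both populations DARPP-32 and the phosphodiesterase PDE10A act on this cAMP signal, and RGS9 shortens signalling through G proteins. Some of these genes, in particular Penk, Pdyn and Tac1, are also expressed by neurons outside the striatum.

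The labels call the tissue brain, the study's methods call it cortical, and its results name the mPFC as the source of the RNA. Of 10 markers of cortical excitatory neurons, some differed widely between libraries and others little. Slc17a7, the vesicular glutamate transporter of these neurons, was at 28.2, 3.86 and 233 CPM (counts scaled to the normalized library total) in control 1, 2 and 3 and at 231, 463 and 87.2 CPM in OE libraries A, B and C. Neurod6, a transcription factor of the same neurons, was at 0.0803 CPM in control 2 and at 0.572 CPM in OE library C, against 4.30 to 23.0 CPM in the other 4 libraries. Neurod2 ran from 0.281 to 61.2 CPM. By contrast Cux2 ran from 33.2 to 54.7 CPM and Rorb from 20.5 to 41.0 CPM. Between these lay Tbr1, from 9.76 to 49.2 CPM, and the other 4 markers, with their highest library at 3.23 to 12.5 times their lowest. Foxp2, among these 4, is also on the list of other medium spiny neuron genes described below. The libraries held 42061721 to 54668294 counts, and mitochondrial transcripts took 7.20% to 9.86% of them in the controls and 5.75% to 6.80% in the AP1AR-DT OE libraries.

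Sequences before the transcription starts of some of the 9 genes are shown as a description. Their part in the levels of the genes was not tested. Of the 9 genes, 6 had a promoter in the RefSeq table of build GRCm38.p6, and for 4 of these a window of 200 bases lay before every annotated start. Capitals mark matches, on either strand, to 3 motifs. TGACG is the core of the element through which cAMP signalling acts on promoters. The GC box, written GGGCGG, is a site for Sp1 proteins. The third motif was the TATA box in the form TATAAA. No matches overlapped. Windows are given 5′ to 3′ on the gene's strand. They lie at chr13:54055706-54055905 (minus strand) for Drd1, chr9:49340203-49340402 (plus strand) for Drd2, chr2:129699939-129700138 (minus strand) for Pdyn and chr11:109298182-109298381 (minus strand) for Rgs9.
Drd1: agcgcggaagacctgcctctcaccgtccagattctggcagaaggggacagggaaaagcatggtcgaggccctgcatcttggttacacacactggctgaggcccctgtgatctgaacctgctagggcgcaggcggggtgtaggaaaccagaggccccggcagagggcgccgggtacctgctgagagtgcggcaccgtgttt
Drd2: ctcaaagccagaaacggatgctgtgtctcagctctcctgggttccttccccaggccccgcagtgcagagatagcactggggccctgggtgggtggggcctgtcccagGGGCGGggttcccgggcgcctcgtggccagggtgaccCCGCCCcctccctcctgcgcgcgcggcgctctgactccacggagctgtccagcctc
Pdyn: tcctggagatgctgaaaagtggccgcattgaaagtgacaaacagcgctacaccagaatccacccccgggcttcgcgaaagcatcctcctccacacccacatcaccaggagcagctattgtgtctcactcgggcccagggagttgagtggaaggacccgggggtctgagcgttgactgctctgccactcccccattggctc
Rgs9: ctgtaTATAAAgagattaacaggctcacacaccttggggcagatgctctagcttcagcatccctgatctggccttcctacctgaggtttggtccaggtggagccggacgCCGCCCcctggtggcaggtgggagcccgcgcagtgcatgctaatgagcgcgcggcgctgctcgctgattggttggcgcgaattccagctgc
No motif was present in all 4 windows. Drd2 had 2 matches to GGGCGG, and Rgs9 had 1 match to GGGCGG and 1 to TATAAA. The TATAAA match in Rgs9 lies near the 5′ end of the window, far from the RefSeq start. Drd1 and Pdyn held none of the 3 motifs in these letters. Among 32851 promoters of the same length, 31% held GGGCGG, 15.7% held TGACG and 9.96% held TATAAA. The windows were 63% G or C for Drd1, 71% for Drd2, 59% for Pdyn and 60.5% for Rgs9, against a median of 53% over all promoters. The Drd1 window ended 47 bases before the RefSeq start. A match in a window is a description of its letters and says nothing of which factor binds there.

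All 9 genes had a higher fitted level in AP1AR-DT OE mice than in control mice, with Log2FC (AP1AR-DT OE against control) from 0.52 for Drd2 to 1.41 for Adora2a and a median of 0.96, where the median over all genes tested was -0.014. None of the 9 passed the test. By edgeR's quasi-likelihood test 0 of 9 met the thresholds of the study (P under 0.05 and an absolute Log2FC above 0.32), which 12.2% of all genes tested met in either direction and 5.1% met as higher. Unadjusted P-values of the 9 ran from 0.0537 to 0.342, so the count under 0.05 was also 0, and it was 0 of 9 with DESeq2 and 0 of 9 with limma-voom. Adjusted P-values (Benjamini-Hochberg) of the 9 genes ran from 0.337 to 0.646, and 0.0275% of genes tested had an adjusted P under 0.05. The 2 groups of mice overlapped for all 9 genes, whereas 22.4% of genes tested did not overlap and 10.4% were higher in every AP1AR-DT OE library than in every control. Because the 9 genes were selected for differences between replicates, a wide spread within groups was favoured in advance. Their P-values and overlap are thus not an even comparison with the shares over all genes. In bulk tissue, fewer neurons of a type and less RNA per neuron cannot be told apart.

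The 3 receptors came first. Drd1, the D1 receptor of the direct pathway (chromosome 13, 54051183 to 54055705, GRCm38), was at 61.8, 11.9 and 16.3 CPM in control 1, 2 and 3 and at 99.0, 37.8 and 38.6 CPM in OE libraries A, B and C. OE library A was highest, control 1 lay above both OE libraries B and C, and controls 2 and 3 were lowest. Its Log2FC was 0.96 ± 0.68 (SE; edgeR adjusted P = 0.513). Drd2, the D2 receptor of the indirect pathway (chromosome 9, 49340627 to 49408177), was at 68.9, 26.9 and 25.9 CPM in the controls and at 82.3, 45.4 and 47.3 CPM in the OE libraries. The order of the libraries resembled that of Drd1 but the spread was smaller, with the highest library at 3.18 times the lowest. Log2FC was 0.52 ± 0.43 (SE; edgeR adjusted P = 0.576). Adora2a, the adenosine receptor that the same indirect pathway neurons carry (chromosome 10, 75316877 to 75334784), was at 59.9, 7.27 and 17.0 CPM in the controls and at 146, 38.1 and 38.7 CPM in the OE libraries. It had the widest spread of the 9 genes, with OE library A at 20.1 times control 2. The Log2FC of Adora2a was 1.41 ± 0.84 (SE; edgeR adjusted P = 0.447).

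**Figure D1:**
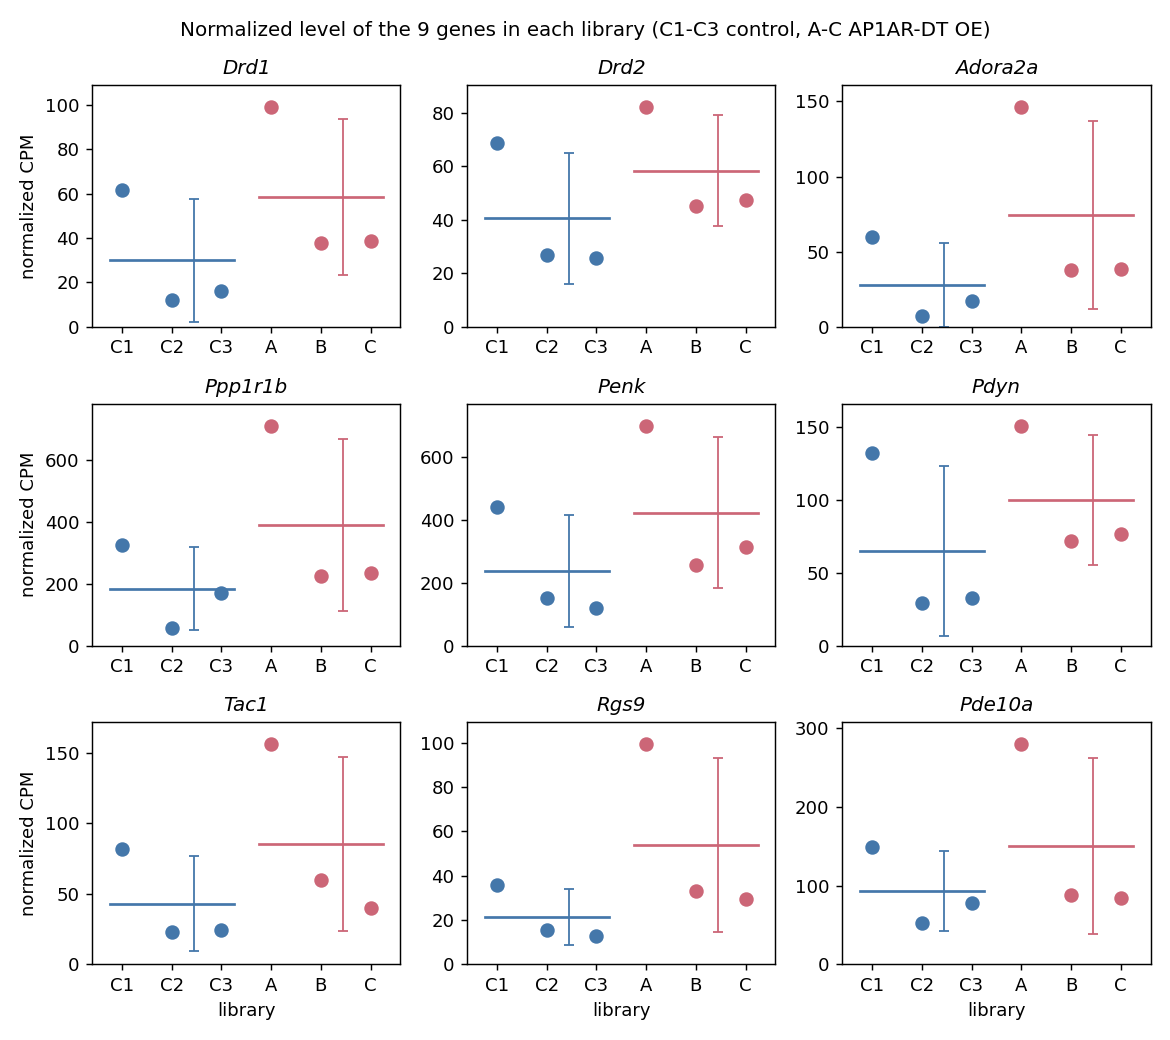
Normalized CPM of each of the 9 genes (y axis, linear and starting at 0) in the libraries control 1 to 3 (C1 to C3, blue) and AP1AR-DT OE A to C (red), with each point 1 mouse, horizontal lines the group means and bars the SD over 3 mice. OE library A is the highest point in all 9 panels, and control 1 lies above controls 2 and 3 in all 9.

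For all 3 peptide genes OE library A was highest and control 1 came next. Penk, which encodes proenkephalin (chromosome 4, 4133531 to 4138819), was at 442, 151 and 121 CPM in control 1, 2 and 3 and at 701, 257 and 314 CPM in OE libraries A, B and C. Control 1 again lay between OE library A and the other OE libraries, and control 3 was lowest. Its Log2FC was 0.83 ± 0.57 (SE; edgeR adjusted P = 0.502). Pdyn, which encodes prodynorphin (chromosome 2, 129686565 to 129699844), was at 132, 29.4 and 32.8 CPM in the controls and at 151, 71.9 and 76.6 CPM in the OE libraries. Control 1 came closer to OE library A for Pdyn than for the other peptide genes. Log2FC was 0.62 ± 0.61 (SE; edgeR adjusted P = 0.646), the highest of the 9 genes. Tac1, which encodes substance P (chromosome 6, 7554879 to 7565834), was at 81.8, 23.1 and 24.0 CPM in the controls and at 156, 60.0 and 39.9 CPM in the OE libraries. Unlike the other peptide genes it was higher in OE library B than in C, and control 1 lay above both. The Log2FC of Tac1 was 0.99 ± 0.66 (SE; edgeR adjusted P = 0.490). A830012C17Rik, a gene annotated as overlapping Penk, held 998 counts in all 6 libraries, 1.01% of those of Penk.

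The signalling genes included the member with the lowest P. Ppp1r1b, which encodes DARPP-32, an inhibitor of protein phosphatase 1 (chromosome 11, 98348404 to 98357796), was at 325, 57.6 and 170 CPM in the controls and at 711, 224 and 235 CPM in the OE libraries. Control 2 stood lowest and control 3 lay nearer to OE libraries B and C than it did for Drd1. Its Log2FC was 1.08 ± 0.68 (SE; edgeR adjusted P = 0.466). Rgs9, a GTPase-activating protein for G proteins (chromosome 11, 109225355 to 109298129), was at 35.8, 15.5 and 12.7 CPM in the controls and at 99.3, 33.0 and 29.3 CPM in the OE libraries. Control 1 lay just above OE libraries B and C, and controls 2 and 3 lay well below them. Log2FC was 1.34 ± 0.58 (SE; edgeR adjusted P = 0.337). Pde10a, the phosphodiesterase that breaks down cAMP and cGMP in these neurons (chromosome 17, 8525372 to 8986648), was at 150, 52.1 and 78.4 CPM in the controls and at 280, 87.9 and 83.8 CPM in the OE libraries. OE libraries B and C lay close to control 3 and below control 1. The Log2FC of Pde10a was 0.69 ± 0.56 (SE; edgeR adjusted P = 0.578). The overlapping gene 1700003D09Rik held 0.557% as many counts as Ppp1r1b. Within the span of Pde10a, on the opposite strand and with no exon in common, Gm15425 held 28% and Gm17087 13.2% as many counts as Pde10a.

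The fitted differences depended on single libraries. Without control 1, edgeR called 8 of the 9 genes as higher in AP1AR-DT OE mice, all but Pde10a, in a fit that called 15% of its genes, and Log2FC of the 8 ran from 1.14 for Drd2 to 2.62 for Adora2a. Their unadjusted P-values in that edgeR fit ran from 0.00317 for Pdyn to 0.0441 for Ppp1r1b and their adjusted P-values from 0.233 to 0.295. Without OE library A the median Log2FC of the 9 genes was 0.27, no gene was called, and Pde10a turned to -0.12. Rgs9 was the one gene called in other fits: edgeR gave it an unadjusted P of 0.0458 without OE library B and of 0.0332 without OE library C. With the same 6 libraries it was also called at a P of 0.0477 with library totals in place of TMM factors, at 0.0472 with no filter and at 0.0493 with at least 10 counts in every library. Over the 15 fits the adjusted P of Rgs9 ran from 0.244 to 0.716.

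**Figure D2:**
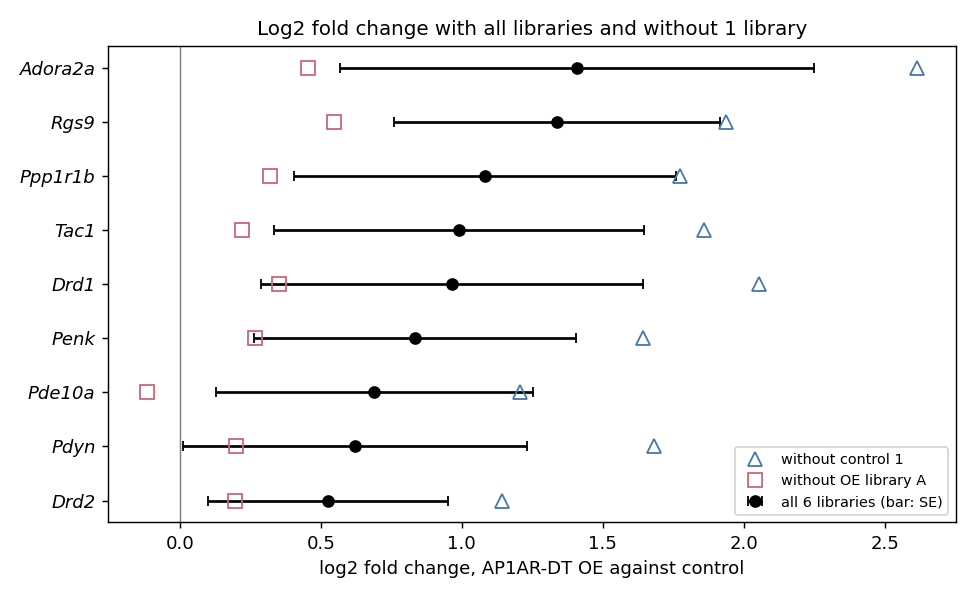
Log2 fold change of AP1AR-DT OE against control mice (x axis) for each of the 9 genes (y axis): black points with SE bars are the edgeR fit of all 6 libraries, blue triangles the fit without control 1 and red squares the fit without OE library A. All 9 triangles lie to the right of the black points and all 9 squares to the left, with Pde10a at -0.12 without OE library A.

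As a description of the values on which the genes were selected, their mean log2 deviation from the mean over 6 libraries was 0.66, -1.29 and -0.92 in control 1, 2 and 3 and 1.49, 0.05 and 0.02 in OE libraries A, B and C. All 9 were highest in OE library A, where 14.8% of all genes tested were highest. Of the 9, 6 were lowest in control 2 (17.9% of genes tested) and 9 in control 2 or 3 (38.4%). For all 9, control 1 lay above controls 2 and 3 (32.6%), and all 9 had every AP1AR-DT OE library above controls 2 and 3 (18%). The range of the mean over libraries was 2.78 on the log2 scale, and it was 2.95 without Penk, Pdyn and Tac1. A single gene had a median range of 0.76 on the log2 scale over the 6 libraries, and 19.6% of genes tested had a wider range than Drd2, the member with the narrowest.

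Per kilobase of exon, the mean level over the 6 libraries was 203 ± 132 CPM per kb (SD, n = 6) for Penk and 98.1 ± 77.0 for Ppp1r1b, followed by Pdyn (28.5 ± 17.4), Drd2 (19.4 ± 8.85), Tac1 (18.9 ± 14.8), Adora2a (16.7 ± 16.4), Drd1 (12.2 ± 8.90), Pde10a (9.49 ± 6.52) and Rgs9 (5.88 ± 4.95). Each gene's mean lay within 1 SD of that of the gene before it, but the genes share their libraries, and within libraries some neighbours kept their order. Penk exceeded Ppp1r1b, Ppp1r1b exceeded Pdyn and Pde10a exceeded Rgs9 in 6 of 6 libraries. The other neighbours kept the order of the means in 4 or 5 of 6 libraries. Penk led the 9 genes in the means of both groups, at 146 ± 108 CPM per kb (SD, n = 3) in controls and 260 ± 148 in AP1AR-DT OE mice. Rgs9 had the lowest mean in both, at 3.34 ± 1.98 and 8.42 ± 6.17 CPM per kb.

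Ratios of 2 genes within a library do not depend on library size. The ratio of Drd1 to Drd2 counts was 0.897, 0.441 and 0.628 in control 1, 2 and 3 and 1.20, 0.833 and 0.816 in OE libraries A, B and C. It was thus lowest in controls 2 and 3, but control 1 lay above OE libraries B and C. The group means of the log2 ratio were -0.67 ± 0.51 and -0.10 ± 0.32 (SD, n = 3 each), a difference of 0.57 (two-sided exact permutation P = 0.3, 0.6 adjusted over 2 ratios). The smallest P that 3 against 3 libraries allow is 0.1. The ratio of Tac1 to Penk was 0.185, 0.153 and 0.198 in the controls and 0.223, 0.233 and 0.127 in the OE libraries, so OE library C was lowest and OE library B highest. Its log2 difference was 0.08 (two-sided exact permutation P = 0.9, 0.9 adjusted).

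Another pair of ratios was added after the values were seen and was not tested. Adora2a to Drd2, both genes of the indirect pathway, gave 0.868, 0.270 and 0.657 in the controls and 1.78, 0.839 and 0.817 in the OE libraries. Between these genes of one pathway the ratio thus spread more widely from library to library than that of Drd1 to Drd2, which compares the 2 pathways. Pdyn to Tac1, both of the direct pathway, gave 1.62, 1.28 and 1.37 in the controls and 0.966, 1.20 and 1.92 in the OE libraries, with both extremes among OE libraries.

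**Figure D3:**
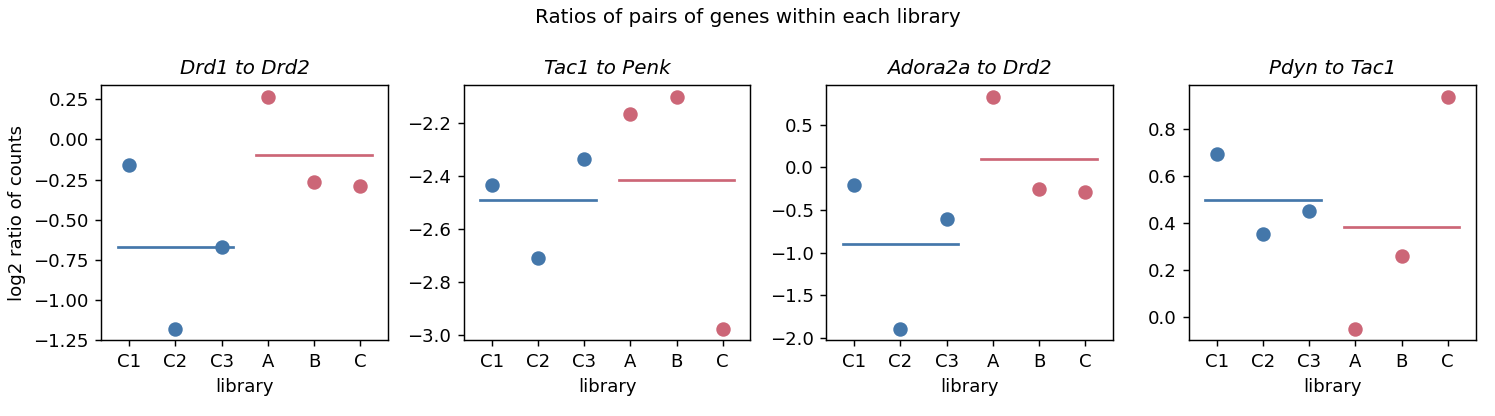
Log2 ratio of the counts of 2 genes (y axis, a separate scale in each panel) in controls 1 to 3 (C1 to C3, blue) and AP1AR-DT OE libraries A to C (red), with lines at the group means. The groups overlap in all 4 panels, and the difference of the Drd1 to Drd2 means is 0.57.

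Other genes of medium spiny neurons, listed apart from the 9, varied in the same direction with a smaller median. Of 30 such genes 26 had a positive Log2FC, with a median of 0.50, and 22 were highest in OE library A (14.8% of all genes tested). Of the 30, 28 were lowest in control 2 or 3 (38.4%), and 28 had control 1 above controls 2 and 3 (32.6%). The list was chosen with earlier results of these data known and was read in the same libraries. These counts are thus a description and no independent check of the pattern of the 9 genes. By edgeR 2 of the 30 rose and 1 fell under the study's thresholds (12.2% of all genes tested were called), and 0 had an adjusted P under 0.05. The count of 3 became 21 without control 1 and 0 without control 2, without control 3 or without OE library A, and 1 without OE library B. The share of all genes called was 15% without control 1, 9.79% without control 2 and 10.8% without control 3. It was 7.19% without OE library A and 6.33% without OE library B. With a GC content correction, in a fit that called 7.16% of all genes, the count was also 0. None of the 3 calls below held there. Kcnip2, a subunit of potassium channels, was at 116, 67.8 and 83.2 CPM in the controls and at 158, 121 and 129 CPM in the OE libraries, and did not overlap (Log2FC 0.61 ± 0.21, SE; edgeR adjusted P = 0.295). Ngef, a guanine nucleotide exchange factor, was at 190, 111 and 100 CPM against 268, 207 and 177 CPM, where control 1 lay between OE libraries C and B (Log2FC 0.70 ± 0.27, SE; edgeR adjusted P = 0.309). Ebf1, a transcription factor of direct pathway development, went the other way at 3.47, 5.36 and 5.21 CPM against 2.47, 1.85 and 3.58 CPM, with control 1 just below OE library C (Log2FC -0.83 ± 0.31, SE; edgeR adjusted P = 0.303).

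A different order of libraries was seen for Gnal, a gene of the same list. Gnal, the G protein subunit that couples the Drd1 and Adora2a receptors to adenylyl cyclase in the striatum, was at 457, 29.9 and 123 CPM in the controls and at 40.8, 325 and 336 CPM in the OE libraries. It was thus low in OE library A, where the 9 genes were highest. Mppe1 is annotated on the opposite strand with exons that overlap those of Gnal. It was at 4.03, 57.7 and 21.5 CPM in the controls and at 104, 5.73 and 6.06 CPM in the OE libraries. Mppe1 was thus highest in OE library A and control 2, where Gnal was lowest, though not in an exactly reversed order. Use of strand in the counting is not stated in the sources used here, so reads of the 2 genes may have been split between them, and the part of this in the level of Gnal was not tested. The sum of both genes was 461, 87.7 and 144 CPM in the controls and 145, 330.4 and 342 CPM in the OE libraries.

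Partners of the 9 genes in cAMP signalling had a smaller median difference. Of 18 such genes, some of them also in the list above, edgeR called 1 as higher and 1 as lower, a share near the 12.2% of all genes tested that were called, and the median Log2FC was 0.21. Ppp1ca, a catalytic subunit of the phosphatase that DARPP-32 inhibits, was at 135, 125 and 136 CPM in the controls and at 190, 172 and 142 CPM in the OE libraries (Log2FC 0.35 ± 0.12, SE; edgeR adjusted P = 0.296). Creb1, a transcription factor that cAMP signalling activates, was lower in every AP1AR-DT OE library, at 37.4, 39.0 and 43.2 CPM against 29.4, 30.9 and 22.3 CPM (Log2FC -0.53 ± 0.15, SE; edgeR adjusted P = 0.295). Neither was highest in control 1 among the controls, unlike the 9 genes.

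Receptors and processing enzymes for the same transmitters gave no common direction: of 12 genes 6 had a positive and 6 a negative Log2FC, with a median of -0.01. By edgeR 1 of the 12 was called as higher and 1 as lower, and these are the genes described here. Of all genes tested 12.2% were called. The groups did not overlap for 1 gene of the 12 as higher and 2 as lower, where 22.4% of all genes tested did not overlap. Oprd1, the delta opioid receptor for enkephalin, was at 7.10, 4.58 and 4.32 CPM in the controls and at 13.5, 10.5 and 7.17 CPM in the OE libraries (Log2FC 0.97 ± 0.29, SE; edgeR adjusted P = 0.295). The lowest OE library exceeded the highest control by a small margin. Oprm1, the mu opioid receptor, was at 3.22, 3.43 and 5.19 CPM against 1.96, 0.742 and 2.13 CPM, all OE libraries below all controls (Log2FC -1.29 ± 0.42, SE; edgeR adjusted P = 0.295).

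The genes whose pattern over the 6 libraries was most like the mean pattern of the 9 were named by the root mean square (RMS) difference of centred log2 CPM, over 15836 candidates with a median of 0.95. Among the first 8 were Cd4 (RMS 0.13), Slc35d3 (0.16), Gng7 (0.19), Scn4b (0.19), Arpp21 (0.20), Adra2c (0.26) and Gpr6 (0.27), and all of these but Cd4 and Adra2c are on the list of other medium spiny neuron genes. The 9 genes themselves had RMS from 0.16 for Drd1 to 0.47 for Adora2a, and 50 candidates lay below that upper value. Each of the 9 is part of the mean it was measured against, which the candidates are not, so its RMS is smaller for that reason alone. Gng7, a G protein gamma subunit of striatal neurons, was at 459, 141 and 219 CPM in the controls and at 810, 389 and 318 CPM in the OE libraries. Cd4, best known as a surface protein of T cells, was at 3.74, 1.20 and 1.58 CPM and at 8.43, 2.71 and 2.74 CPM. Adra2c, an alpha-2 adrenergic receptor, was at 44.8, 20.6 and 19.7 CPM and at 95.2, 44.8 and 39.2 CPM.

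Markers of other cells moved with the same libraries. All 5 markers of striatal cholinergic interneurons were lowest in control 2 or 3 and higher in control 1 than in both, and their summed level was 46.6 to 126 CPM in controls and 97.9 to 140 CPM in AP1AR-DT OE mice. One of them, the vesicular acetylcholine transporter Slc18a3, was called as higher (Log2FC 1.05; edgeR adjusted P = 0.312), as were 5.1% of all genes tested. Summed over the 10 markers of hypothalamic neurons, the level was high where the 9 genes were low. It was 651 CPM in control 2 and 94.5 CPM in control 3. Control 1 stood at 54.0 CPM and AP1AR-DT OE libraries at 47.6 to 66.0 CPM. Oxt (281 CPM), Avp and Trh (121 CPM) made up most of the sum in control 2. Of 9 markers tested, 7 had a negative and 2 a positive Log2FC. Cartpt went the other way, at 46.6, 25.5 and 15.7 CPM in the controls and 52.9, 35.5 and 27.5 CPM in the OE libraries. Avp, the vasopressin gene, was at 184 CPM in control 2 and 15.1 CPM in control 3 and at no more than 0.872 CPM in the other 4. In control 3, all 8 thalamic and all 10 choroid plexus markers were at their highest, summing to 1011 CPM (193 to 353 CPM in the other libraries) and 5136 CPM (114 to 152 CPM). Ttr, the transthyretin gene of the choroid plexus, was at 3428 CPM there and at no more than 5.43 CPM elsewhere. In control 2, where 6 of the 9 genes were lowest, the choroid plexus markers stood at 152 CPM. All 7 oligodendrocyte markers were highest in control 3 as well, summing to 10684 CPM against 5069 and 6457 CPM in controls 1 and 2 and 5105 to 5166 CPM in AP1AR-DT OE mice. By edgeR, 4 of 9 hypothalamic markers tested, 3 of 8 thalamic, 5 of 8 choroid plexus and 2 of 7 oligodendrocyte markers were called as lower in AP1AR-DT OE mice, as were 7.15% of all genes tested. At 0 counts stood Oxt, the oxytocin gene, in control 1 and OE library B, and the choroid plexus genes Slc4a5 and Kcnj13 in controls 1 and 2 and OE library A. The part of these cell types in the levels of the 9 genes was not tested.

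Markers of GABA neurons summed to 2114, 1742 and 1045 CPM in control 1, 2 and 3 and to 1899, 2043 and 2163 CPM in OE libraries A, B and C. The 9 genes summed to 1357, 374 and 499 CPM in the controls and to 2426, 855 and 903 CPM in the OE libraries. Relative to control 1, GABA neuron markers were at 82.4% in control 2 and 49.4% in control 3, and the 9 genes at 27.6% and 36.7%. Cortical excitatory markers summed to 128 to 479 CPM in controls and 219 to 738 CPM in AP1AR-DT OE mice, with OE library B highest and edgeR calling Cux2 as higher and Rorb as lower. Septal markers (498 to 941 CPM over all libraries) and dopamine neuron markers (26.3 to 54.8 CPM) had 0 genes called of 6 each, by edgeR. Astrocyte markers summed to 4002 to 5012 CPM (1 of 6 called, as lower), microglial markers to 217 to 317 CPM (2 of 6, as higher) and endothelial markers to 75.5 to 129 CPM (1 of 5, as higher). Npy was the 1 GABA neuron marker of 8 that was called, as higher. Of all genes tested, 5.1% were called as higher and 7.15% as lower. No gene of any of these lists had an adjusted P under 0.05.

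**Figure D4:**
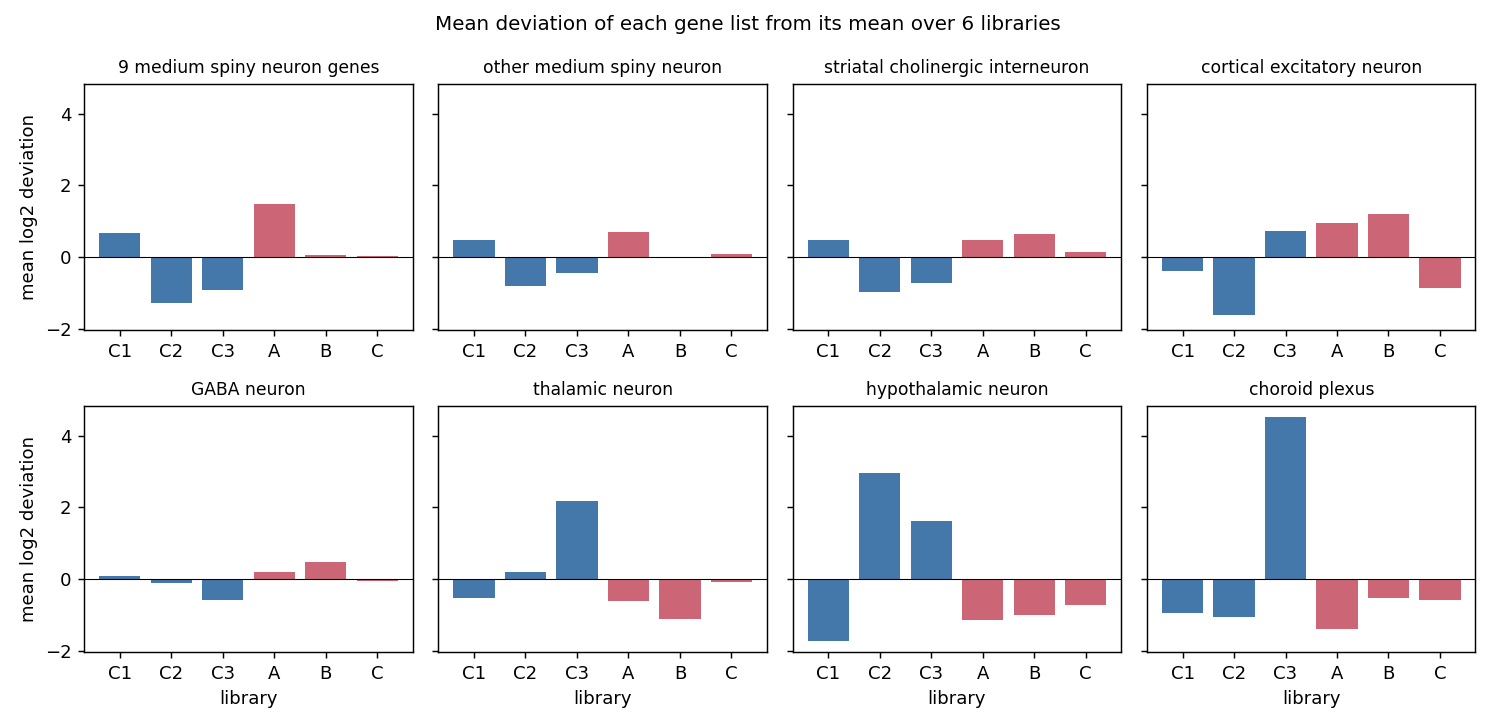
Mean deviation of log2 CPM from the mean over 6 libraries (y axis) for the 9 genes and 7 marker lists, in controls 1 to 3 (C1 to C3, blue bars) and AP1AR-DT OE libraries A to C (red bars). The 9 genes range from -1.29 in control 2 to 1.49 in OE library A, hypothalamic markers are highest in control 2 and choroid plexus markers in control 3.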

How the data were processed

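RNA-seq of brain tissue from 3 AP1AR-DT OE mice and 3 control mice was analysed. The deposited values are whole-number counts per gene: the authors checked reads with FastQC, aligned them to GRCm38 with Bowtie2, ran StringTie on known GENCODE genes and took counts from its coverage with a Python script, so that 1 count is not 1 read pair. Versions for these steps are not given in the sources used here. The GEO notes list other tools and an older build, which the table does not match. The same deposited table holds the authors' DESeq2 results (log2 fold changes, test statistics and P-values), which were not used.

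Counts were fitted with edgeR 4.0.16 (R 4.3.3) after its expression filter and TMM normalization, with no covariate, in a two-sided quasi-likelihood test with Benjamini-Hochberg adjustment over 21844 genes. A gene was called at P under 0.05 and an absolute Log2FC above 0.32, the thresholds of the study. The script was tested on simulated data. DESeq2 1.42.0, limma-voom (limma 3.58.1), other scalings and filters, GC content and length corrections and each library left out were alternatives. Pairs of genes were compared by exact permutation. List levels used a pseudocount of 0.05 CPM.

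Gene coordinates and exon lengths are from the GENCODE annotation of GRCm38, and promoters from RefSeq. Medians, ranges and per-kilobase levels are from normalized CPM. The members and lists were chosen with earlier results of these data known. Named genes were the 9 members, the called genes of the 3 related lists with the smallest P (up to 6 each) and the 8 genes most alike in pattern (1 is not reported here), and Gnal, Mppe1 and marker genes were named after their values were seen. The transgene was not analysed here.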

Additional observations from a re-analysis of the deposited data

How the results depend on the processing

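The median Log2FC of the 9 genes stayed positive in all 15 fits (0.27 to 1.78), and each single gene did so except Pde10a, which ran from -0.12 without OE library A to 1.21 without control 1. The number of the 9 genes called was 0 with all libraries and 1, Rgs9, with library totals, with no filter or with at least 10 counts in every library. Leaving out 1 library gave 0 to 8 genes called, with 8 only without control 1. For the 30 other medium spiny neuron genes the count of 3 called became 6 with DESeq2, 5 with limma-voom, 0 with the GC content correction and 0 to 21 with 1 library left out. The share of all genes called was 12.2% with edgeR on all libraries, 9.7% with DESeq2 and 12.6% with limma-voom. It was 7.16% with the GC content correction and 6.33% to 15.6% with 1 library left out. With library totals it was 11.8%, with no filter 9.14% and with at least 10 counts in every library 13.9%. The log2 ratio of Tac1 to Penk, 0.08 with all libraries, was -0.030 without control 2, -0.046 without OE library A and -0.080 without OE library B, and 0.36 without OE library C. That of Drd1 to Drd2 ran from 0.32 to 0.83 when 1 library was left out. The number of all genes called was 2675, and it was 1565 with the GC content correction, 1620 without OE library A and 1430 without OE library B. The cause of these changes was not tested. No gene among the 9 had an adjusted P under 0.05 in any of the 15 fits.

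No paired analysis was possible because the libraries of the 2 groups are from different mice, and nothing in the sources used here ties a mouse number to a shared litter, batch or day. With 3 mice a group, the median SE of Log2FC was 0.20 over all genes tested and 0.43 to 0.84 for the 9 genes. An exact permutation of 3 against 3 libraries cannot reach P under 0.1. Use of strand in the counting is not given in the sources used here, and the region dissected in each mouse was not analysed beyond the markers above.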
